A study of Mus musculus with 4 samples.

Results

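Astrocytes of the mouse spinal cord were taken from 4 single-cell RNA sequencing libraries by a gate on marker genes, which held 120 of 20454 kept cells. Cells were kept from 500 unique molecular identifiers (UMIs, each standing for 1 captured mRNA molecule) and 200 genes upwards, with mitochondrial UMIs up to 15%. The astrocytes were chosen by their own counts: each had UMIs of at least 3 of the 7 genes Aqp4, Gja1, Aldh1l1, Slc1a2, Agt, Slc7a10 and Ntsr2. It had UMIs of at most 1 of the ependymal genes Ccdc153, Tmem212, Foxj1 and Rsph1. The complement genes C1qa, C1qb and C1qc, which mark macrophages and microglia, stayed below 0.5% of its UMIs, and the endothelial genes Cldn5 and Pecam1 together below 4 UMIs.

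By its labels the study set a tau transgene, a CD8 genotype and age against each other in the cord. Its 4 groups had 1 library each. They were labelled P301S hom CD8 KO (30 weeks of age), P301S hom CD8 WT (33 weeks in one library, 30 weeks in another) and P301S neg CD8 WT (30 weeks), where hom stands for homozygous. P301S is a mutation of the microtubule-binding protein tau found in familial tauopathy. The promoter that drives the transgene and the CD8 gene that was altered are not given in the sources used here. Cords of 2 mice perfused with saline were pooled for each library, dissociated with a tumour dissociation kit on a heated instrument and cleared of myelin with beads, and 10x Genomics 3′ libraries were made of what remained. The comparisons below set P301S hom against P301S neg (both CD8 WT, 30 weeks), the library labelled CD8 KO against CD8 WT (both P301S hom, 30 weeks), and 33 weeks against 30 weeks (both P301S hom CD8 WT). The P301S hom CD8 WT library at 30 weeks serves in all 3, so these comparisons are not independent of each other.

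Astrocytes take up glutamate and potassium from around synapses, move water through aquaporin-4 at their endfeet on vessels, turn glutamate into glutamine and supply neurons with lactate and cholesterol. In injury and neurodegeneration they become reactive: they build up intermediate filaments of GFAP and vimentin and secrete complement, protease inhibitors and lipid carriers. Astrocytes of white matter, called fibrous, have high GFAP at rest, whereas those of grey matter, called protoplasmic, have little of it and more of the transporters that work at synapses.

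With 1 library in each group no statistical test of a condition was possible. Intervals are exact 95% intervals for counting error only, and neither animals nor batches enter them. A level is given as counts per 1000000 (CPM), the UMIs of a gene per 1000000 UMIs summed over the astrocytes of a library. A gene was measured in a comparison where the 2 sums held at least 20 of its UMIs, and it is called higher or lower where its ratio was at least 1.5-fold.

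The libraries held 36331214 to 43531426 UMIs and 4751 to 5738 kept cells, with median depths of 5302 to 7232 UMIs per kept cell. No barcode of an astrocyte recurred among the astrocytes of another library, and 14 to 21 kept barcodes of each library were shared with another. Over all kept cells Cd8a was higher, not lower, in the library labelled CD8 KO, at 32.6 CPM (interval 30.9 to 34.4). It stood at 2.18 CPM in the 33-week CD8 WT library, 2.12 CPM at 30 weeks and 1.45 CPM in P301S neg. In the library labelled CD8 KO, 1224 of the Cd8a UMIs lay in endothelial-gated cells, of which 641 of 1394 had one. Cd8b1 went the other way, at 1.55 CPM there, 4.25 CPM at 33 weeks, 2.94 CPM at 30 weeks and 2.09 CPM in P301S neg, over all kept cells. These are RNA counts and the altered CD8 gene is not given, so the label was not tested by them. Astrocytes held no UMI of Cd8a or Cd8b1 in any library. This allows up to 13.0 CPM in the library labelled CD8 KO, with a cell of 93571 UMIs described below included. The limit was 17.6 CPM at 33 weeks, 17.8 CPM at 30 weeks and 21.9 CPM in P301S neg.

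Sex differed between libraries. By Xist and Y-linked UMIs, the library labelled CD8 KO held 14 male and 0 female astrocytes, the 33-week CD8 WT library 11 male and 5 female, that at 30 weeks 0 male and 18 female, and P301S neg 6 male and 14 female, with 10 to 16 cells unclear in each. CD8 status and sex can therefore not be told apart at 30 weeks. Genes of blood cells also differed. Haemoglobin was 0.00606% of astrocyte UMIs in the library labelled CD8 KO, 1.73% at 33 weeks, 0.0515% at 30 weeks and 7.61% in P301S neg. Few cells were rich in such genes. Over 1% of UMIs in haemoglobin or in S100a8 and S100a9 was found in 1 astrocyte of the library labelled CD8 KO. The same held for 2 at 33 weeks, 2 at 30 weeks and 2 in P301S neg.

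The gate found 27 astrocytes in the library labelled CD8 KO, 32 in the 33-week CD8 WT library, 31 at 30 weeks and 30 in P301S neg. That was 0.526% (0.347 to 0.764) of kept cells in the library labelled CD8 KO, 0.663% (0.454 to 0.934) at 33 weeks, 0.652% (0.444 to 0.925) at 30 weeks and 0.523% (0.353 to 0.746) in P301S neg. The intervals all overlapped. Macrophage-gated cells took 47.8% of the kept cells in the library labelled CD8 KO, 33.8% at 33 weeks, 41.5% at 30 weeks and 23.5% in P301S neg. Among cells outside the macrophage gate, astrocytes were 1.01% in the library labelled CD8 KO, 1.0% at 33 weeks, 1.12% at 30 weeks and 0.683% in P301S neg. Shares of cells that come through dissociation and myelin removal are not shares in the tissue.

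The median astrocyte had 3462 UMIs in the library labelled CD8 KO, 3531.5 at 33 weeks, 3131 at 30 weeks and 3954 in P301S neg. The median mitochondrial share of astrocytes was 6.68% in the library labelled CD8 KO, 6.62% at 33 weeks, 8.27% at 30 weeks and 10.8% in P301S neg, beside 3.30 to 3.63% over all kept cells. The share thus differed along with both the transgene and the CD8 label, and its part in the differences described here was not tested. One astrocyte of the library labelled CD8 KO had 93571 UMIs, 4.87 times the next, and gave 40.5% of the UMIs of its group. It passed the gate on 10 UMIs of Aqp4, Agt and Ntsr2, had 0 UMIs of Gfap and Aldoc, and carried 506 UMIs of Fxyd2, 255 of Tac1, 86 of Avil and 37 of Snap25, genes known from sensory and other neurons. Levels of the library labelled CD8 KO are therefore given without that cell where it changes them, over 26 cells and 137602 UMIs. The sums of the other libraries held 170411 UMIs at 33 weeks, 168985 at 30 weeks and 136906 in P301S neg.

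The gate's own genes are no finding, but genes it did not use describe the cells it took. The 20 genes with the highest ratio to all other kept cells, each at 100 CPM or more, began with Agt, Aqp4 and Gfap at 178-, 147- and 110-fold. Further down came A2m (a protease inhibitor, 95.8-fold), Aldoc (the brain form of aldolase, 84.8-fold), Gpr37l1 (a glial receptor, 65.4-fold), Scg3 (a granin of secretory granules, 55.9-fold) and Cldn10 (a claudin, 55.3-fold). Slc4a4 (a bicarbonate carrier), Bcan (brevican, a matrix proteoglycan), Acsbg1, Ttyh1 and Atp1b2 were also among the 20, as was Fxyd2, whose UMIs lay in the deep cell. All 16 markers of the astrocyte list were found in each library, but the 7 gate genes are among them. The gate thus set part of the following gap to other cells in advance. Their summed level was 17209 CPM in the library labelled CD8 KO without the deep cell, 27756 CPM at 33 weeks, 26097 CPM at 30 weeks and 20226 CPM in P301S neg, beside 3296 CPM in ependymal-gated, 191 CPM in endothelial-gated and 84.9 CPM in macrophage-gated cells.

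**Figure D1:**
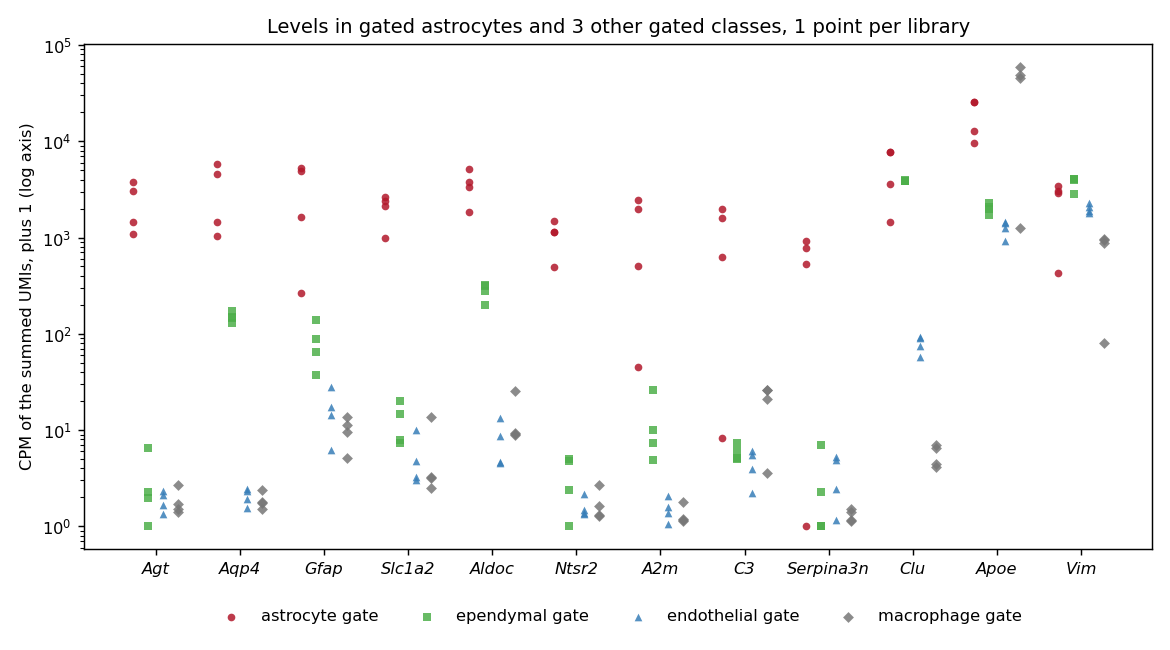
Level of 12 genes in astrocytes and in 3 other gated cell classes, 1 point for each library, on a log axis of CPM + 1. Gfap stood at 263 to 5311 CPM in astrocytes and at most at 137 CPM in ependymal-gated cells, and Apoe was higher in P301S hom macrophage-gated cells (45188 to 59028 CPM) than in astrocytes.

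Markers of other cell types were low but not absent. Tmem119 (microglia), Ccdc153 (an ependymal gene that the gate limited) and the myelin genes Mog, Ermn, Opalin and Cldn11 had 0 UMIs in all 4 groups. Other members of their lists were found. The 8 oligodendrocyte markers summed to 749 CPM in the library labelled CD8 KO without the deep cell, 452 CPM at 33 weeks, 166 CPM at 30 weeks and 869 CPM in P301S neg. Markers of oligodendrocyte precursors, all 4 found in each library, summed to 683, 511, 681 and 628 CPM in the same order. Summed microglia and macrophage markers came to 1417 CPM in the library labelled CD8 KO without the deep cell, 358 CPM at 33 weeks, 408 CPM at 30 weeks and 541 CPM in P301S neg. Neutrophil markers summed to 1817 CPM in the library labelled CD8 KO, 3503 CPM at 33 weeks, 166 CPM at 30 weeks and 10394 CPM in P301S neg. Mural markers summed to 2238 CPM in the library labelled CD8 KO, 399 CPM at 33 weeks, 290 CPM at 30 weeks and 102 CPM in P301S neg. Positional genes were those of the cord: the 16 Hox genes of the list were all found, with 353 UMIs in all, while the forebrain genes Lhx2, Emx2 and Otx1 had 0 UMIs.

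Cells at the edge of the gate were less like astrocytes than the rest. The 95 cells with 4 or more gate genes had 4202 CPM of Gfap, 4538 CPM of Aldoc and 7196 CPM of Clu, and none had a UMI of Pdgfra, a marker of oligodendrocyte precursors. The 24 cells with exactly 3, without the deep cell, had 582 CPM of Gfap, 823 CPM of Aldoc and 615 CPM of Clu, and 33.3% of them had Pdgfra. The 56 cells just outside, with exactly 2, had 121 CPM of Gfap, 513 CPM of Aldoc and 487 CPM of Clu, and 51.8% had Pdgfra. Directions that change when the cells with exactly 3 gate genes are left out are marked as such. A change in the size of a ratio is not always marked.

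Astrocytes of P301S hom cords had more of the genes of reactivity than those of P301S neg cords and less of several genes of synaptic support and cholesterol synthesis. Of 2667 genes measured, 795 (29.8%) were higher and 465 (17.4%) lower, with a median log2 ratio of 0.19. Requiring the counting interval to lie beyond 1 left 414 higher (15.5%) and 237 lower (8.89%). Scaling by trimmed means (TMM), which moved all ratios down by 0.16 on the log2 scale, gave 656 higher (24.6%) and 587 lower (22%), and scaling by totals without mitochondrial, ribosomal and haemoglobin genes gave 647 higher and 595 lower. Of the 19 genes listed for disease-associated astrocytes of mouse Alzheimer's models, 18 were measured, and 17 were higher and 0 lower, with a median log2 ratio of 2.32. Without Aqp4, which the gate used, 16 of 17 were higher. The exception was Cst3, the protease inhibitor cystatin C, at 0.875-fold.

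Gfap, the intermediate filament that defines reactive astrocytes (mm10 chromosome 11, 102887336 to 102900912, minus strand), stood at 2733 CPM in the library labelled CD8 KO without the deep cell, 5311 CPM in 33-week CD8 WT, 4894 CPM at 30 weeks and 263 CPM in P301S neg, the last with an interval of 184 to 364. All P301S hom libraries lay above P301S neg. At 30 weeks the ratio of P301S hom to P301S neg was 18.6-fold (13.3 to 26.8). It was spread over cells: 28 of 31 astrocytes in P301S hom and 16 of 30 in P301S neg had a Gfap UMI. After thinning every cell to 1000 UMIs, 76% of astrocytes had one in the library labelled CD8 KO without the deep cell (73.1% with it), 79.3% at 33 weeks, 83.3% at 30 weeks and 36.7% in P301S neg, beside 0.513 to 1.12% of macrophage-gated cells thinned alike, which should lack the gene. Thinning left out 1 shallower astrocyte of the library labelled CD8 KO, 3 at 33 weeks, 7 at 30 weeks and 0 of P301S neg.

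A RefSeq promoter of the gene is printed because a stretch with the letters TTCNNNGAA, to which STAT factors bind, lies at its transcription start. This start lies inside the gene span given above and is not the end from which that span begins on the minus strand. The sequence is RefSeq's GRCm38.p6 promoter, 250 bases before to 50 after the start, on the minus strand at chr11:102897151-102897450, with the match in capitals. The match begins 2 bases before the start.
Gfap promoter: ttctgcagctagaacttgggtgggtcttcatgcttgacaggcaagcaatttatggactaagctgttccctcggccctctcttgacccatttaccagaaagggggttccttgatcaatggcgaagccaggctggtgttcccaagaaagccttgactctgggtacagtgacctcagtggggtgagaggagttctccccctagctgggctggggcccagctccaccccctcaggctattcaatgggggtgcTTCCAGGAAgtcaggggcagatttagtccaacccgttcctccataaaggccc
Those letters were searched on both strands and occur in 8.30% of all 32851 promoters of that length, and in at least 1 promoter of 9.55% of the 27025 genes there. Of the 17 disease-associated genes called higher, 12 had promoters in the table, 16 in all, and Gfap's was the 1 with a match. The AP-1 letters TGANTCA were found in 1 of the 16, that of Osmr, and in 7.81% of all promoters. A match is a description of the letters and not a site of binding.

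Vim, the partner filament vimentin, was at 4840 CPM in the library labelled CD8 KO without the deep cell, 3028 CPM at 33 weeks, 3414 CPM at 30 weeks and 424 CPM in P301S neg. The ratio at 30 weeks was 8.06-fold (6.15 to 10.7), and 81.0% of the UMIs in P301S neg came from 1 cell. Ependymal-gated cells had 2840 to 4084 CPM of Vim. The calcium-binding protein S100a6 was at 4012 CPM in the library labelled CD8 KO without the deep cell, 3515 CPM at 33 weeks, 3716 CPM at 30 weeks and 387 CPM in P301S neg, 9.60-fold (7.25 to 13.0) higher in P301S hom at 30 weeks. Both belong to a list of 11 genes of fibrous astrocytes, of which 10 were measured and 8 were higher and 0 lower (median log2 ratio 2.57). Igfbp5, at 0.788-fold, and the creatine kinase Ckb, at 1.07-fold, were within 1.5-fold.

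Among secreted proteins the differences were larger. C3, the central complement component (chromosome 17, 57203970 to 57228136, minus strand), had 146 UMIs in the library labelled CD8 KO, 271 at 33 weeks, 330 at 30 weeks and 1 in P301S neg. As levels these were 1061 CPM in the library labelled CD8 KO without the deep cell, 1590 CPM at 33 weeks, 1953 CPM at 30 weeks and 7.30 CPM in P301S neg. The ratio at 30 weeks was 267-fold (47.7 to 1.06e+04). P301S hom libraries were all high, with C3 in 14 to 22 astrocytes, against 1 of 30 in P301S neg. Macrophage-gated cells had 25.1 CPM of C3 in P301S hom and 2.60 CPM in P301S neg at 30 weeks, and ependymal- and endothelial-gated cells at most 6.30 CPM in any library.

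Serpina3n, an inhibitor of serine proteases secreted by reactive astrocytes (chromosome 12, 104406729 to 104414329, plus strand), had 70 UMIs in the library labelled CD8 KO without the deep cell, 157 at 33 weeks, 131 at 30 weeks and 0 in P301S neg. It was at least 35.4-fold higher in P301S hom at 30 weeks, with the P301S neg library set at 3 counts. Such a bound leaves out the counting error of P301S hom, and the exact interval of the ratio began at 28.4-fold. In ependymal-, endothelial- and macrophage-gated cells it did not pass 5.94 CPM in any library, and the 20 oligodendrocyte-gated cells of all libraries together had 39.97 CPM. Timp1, an inhibitor of matrix metalloproteinases, had 36 UMIs in the library labelled CD8 KO, 74 at 33 weeks, 104 at 30 weeks and 0 in P301S neg, at least 28.1-fold higher at 30 weeks, with an exact interval from 22.4-fold. C4b, a complement component of the classical pathway, was at 334 CPM in the library labelled CD8 KO without the deep cell, 634 CPM at 33 weeks, 527 CPM at 30 weeks and 29.2 CPM in P301S neg, an 18-fold ratio (6.80 to 67.6) at 30 weeks.

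These genes belong to the lists of reactive astrocytes. Of 13 pan-reactive genes 8 were measured, of which 7 were higher and 1 lower, with a median log2 ratio of 3.61. The 1 lower was Lcn2, whose 31 UMIs in P301S neg came from 1 cell. Hspb1, a small heat shock protein, was at 1984 CPM without the deep cell in the library labelled CD8 KO, 3750 CPM at 33 weeks, 3296 CPM at 30 weeks and 43.8 CPM in P301S neg, a 75.2-fold ratio (34.3 to 206) at 30 weeks. Endothelial-gated cells had 1991 CPM of Hspb1 in the library labelled CD8 KO, 2009 CPM at 33 weeks, 1734 CPM at 30 weeks and 2643 CPM in P301S neg. Osmr, the oncostatin M receptor, had 22 UMIs at 30 weeks and 0 in P301S neg, at least 5.94-fold higher, with an exact interval from 4.44-fold.

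The lists of neurotoxic A1 and protective A2 astrocytes of mouse injury models were measured in part. All 4 of the A2 genes measured, of 12, were higher: Tm4sf1 (a tetraspanin-like membrane protein, 14.9-fold, 8.14 to 30.3), Cd109 (13.0-fold), Emp1 (5.06-fold) and S100a10 (4.55-fold). The P301S neg UMIs of Cd109 and Emp1 came from 1 cell each. Of 11 A1 genes 3 were measured, of which Serping1, the C1 inhibitor, and the class I antigen H2-D1 were higher and Srgn was lower. All 5 UMIs of Srgn in P301S hom came from 1 cell.

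**Figure D2:**
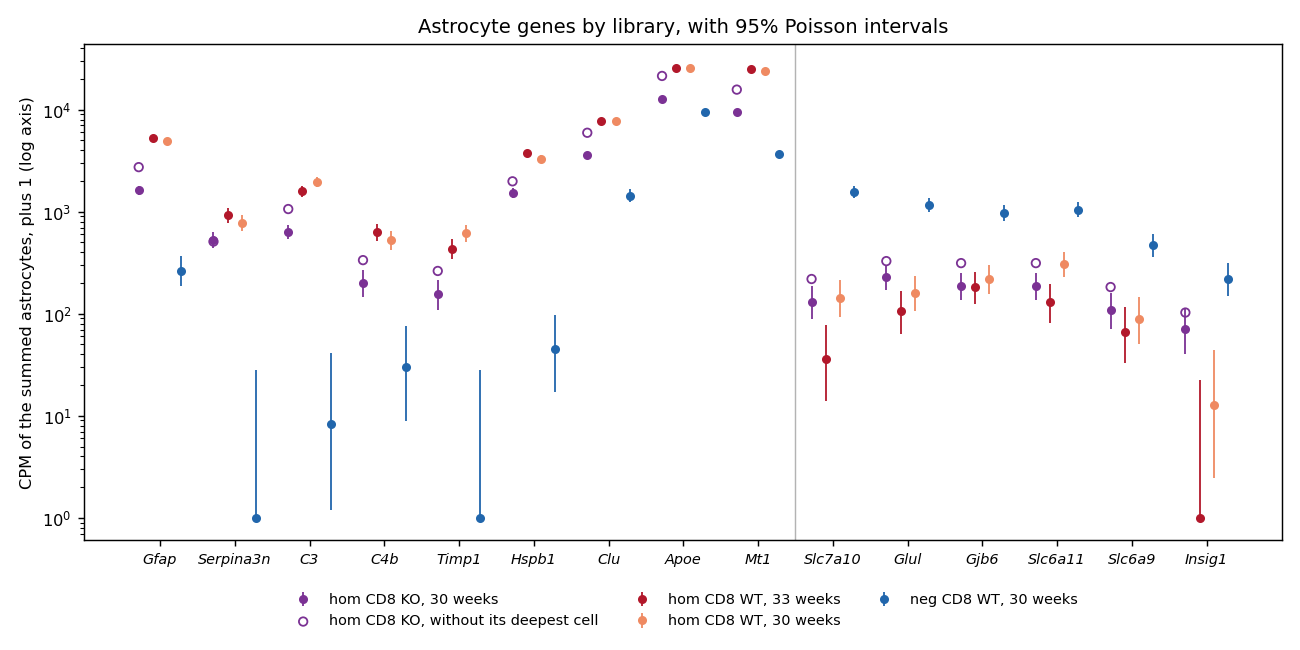
Level of 15 genes in the astrocytes of each library, on a log axis of CPM + 1, with exact 95% Poisson intervals; the open circle is the library labelled CD8 KO without its cell of 93571 UMIs, and the vertical line parts 9 genes higher in P301S hom from 6 lower. With the cell of 93571 UMIs left in, C3 was at 7.30 CPM in P301S neg and at 632 to 1953 CPM in the P301S hom libraries. Slc7a10 was then at 1563 CPM in P301S neg and 35.2 to 142 CPM in P301S hom. Without that cell both levels of the library labelled CD8 KO were higher.

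Lipid carriers and metal-binding proteins were higher in P301S hom. Clu, clusterin, was at 5937 CPM in the library labelled CD8 KO without the deep cell, 7705 CPM at 33 weeks, 7687 CPM at 30 weeks and 1439 CPM in P301S neg, 5.34-fold (4.6 to 6.24) at 30 weeks. Apoe, the main lipid carrier of the brain, was at 21395 CPM in the library labelled CD8 KO without the deep cell, 25679 CPM at 33 weeks, 25511 CPM at 30 weeks and 9474 CPM in P301S neg, 2.69-fold (2.53 to 2.87) at 30 weeks. Macrophage-gated cells had 45188 CPM of Apoe in the library labelled CD8 KO, 59028 CPM at 33 weeks, 49100 CPM at 30 weeks and 1249 CPM in P301S neg, and the part of RNA from those cells in the astrocyte value was not tested. Abca1, which loads cholesterol on to APOE, was 6.28-fold (3.0 to 15.2) higher, and Plin2, a coat of lipid droplets, 3.06-fold. Of 13 genes of lipid transport 8 were measured, and 5 were higher and 0 lower (median log2 ratio 1.07).

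The metallothionein Mt1, which binds zinc and copper, was at 15719 CPM in the library labelled CD8 KO without the deep cell, 24940 CPM at 33 weeks, 23972 CPM at 30 weeks and 3638 CPM in P301S neg, 6.59-fold (6.0 to 7.25) at 30 weeks. Ependymal-gated cells had 9925 CPM of it in the library labelled CD8 KO, 10702 CPM at 33 weeks, 11015 CPM at 30 weeks and 8351 CPM in P301S neg. Mt2 was 7.63-fold (5.87 to 10.1) and Mt3 2.34-fold higher. Among 19 genes of metal binding and redox defence 13 were measured, and 7 were higher and 2 lower. Prdx6 (a peroxiredoxin, 3.68-fold), Gpx4 and Cat (catalase, 2.59-fold) were higher, and Gstm5 (a glutathione transferase) and Selenop (a selenium carrier) were lower. With TMM scaling the counts of the list were 6 higher and 5 lower.

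Lysosomal proteases and membrane proteins of the disease-associated list were higher too. Ctsb stood at 2468 CPM in P301S hom and 497 CPM in P301S neg at 30 weeks, 4.97-fold (3.84 to 6.52), Ctsl was 3.04-fold and Ctsd 1.97-fold higher. The tetraspanin Cd9 was 4.99-fold and Cd81 1.71-fold higher, and Fxyd1 (a regulator of the sodium pump) was at 2178 CPM in P301S hom and 248 CPM in P301S neg, 8.77-fold (6.16 to 12.9). Gsn, gelsolin, was 2.22-fold higher, with 90.0% of its P301S neg UMIs in 1 cell. Of 22 genes of disease-associated microglia 11 were measured in astrocytes, of which 8 were higher and 1 lower. Lgals3, galectin-3, was at 1083 CPM in P301S hom and 36.5 CPM in P301S neg, 29.7-fold (12.5 to 92.4), and macrophage-gated cells had 869 CPM in P301S hom and 20.5 CPM in P301S neg. The part of macrophage RNA in it was not tested.

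Some regulators of transcription and signalling were higher. Of 18 transcription factors of astrocytes 15 were measured, and 6 were higher and 0 lower (median log2 ratio 0.43), beside 29.8% higher and 17.4% lower over all measured genes. The inhibitor of differentiation Id3 was at 1184 CPM in P301S hom and 168 CPM in P301S neg, 7.04-fold (4.56 to 11.4), and Id1, Id4, Zfp36l1 and Sox9 were 6.75-, 3.90-, 2.49- and 1.99-fold higher. Stat3, which drives Gfap in injury, had 28 UMIs in P301S hom and 4 in P301S neg, 5.67-fold (1.98 to 22.3). Where each cell weighed equally the median of the list was 0.07. Of the cytokine genes and receptors, 8 of 26 were measured and 6 were higher, among them the co-receptor Il6st (6.48-fold), the growth factor Csf1 (4.05-fold) and the tumour necrosis factor receptor Tnfrsf1a (3.04-fold). The 2 lower were Cxcl14, a chemokine, at 0.481-fold, and Il1b, whose P301S neg UMIs came from 1 cell.

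Several genes of synaptic support were lower. Glul, glutamine synthetase (chromosome 1, 153899944 to 153909723, plus strand), was at 327 CPM in the library labelled CD8 KO without the deep cell, 106 CPM at 33 weeks, 160 CPM at 30 weeks and 1169 CPM in P301S neg. P301S hom was 7.31-fold (4.84 to 11.4) lower at 30 weeks, and all P301S hom libraries lay below P301S neg. Endothelial-gated cells had 778 to 840 CPM and macrophage-gated cells 751 CPM in the library labelled CD8 KO, 710 CPM at 33 weeks, 636 CPM at 30 weeks and 1551 CPM in P301S neg.

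The glycine transporter Slc6a9 was at 182 CPM in the library labelled CD8 KO without the deep cell, 64.6 CPM at 33 weeks, 88.8 CPM at 30 weeks and 467 CPM in P301S neg, 5.27-fold (2.97 to 9.95) lower at 30 weeks. The GABA transporter Slc6a11 was 3.39-fold (2.46 to 4.76) lower, the glutamine transporter Slc38a3 2.47-fold lower, and Gjb6, connexin 30, was at 219 CPM in P301S hom and 971 CPM in P301S neg, 4.44-fold (3.06 to 6.57) lower. Not all of the machinery was lower. Slc1a3, a glutamate transporter, and Mlc1, an endfoot membrane protein, were 2.63-fold (1.76 to 4.05) and 2.43-fold higher. The potassium channel Kcnj10 (0.810-fold), the pump subunit Atp1b2 (0.866-fold) and the bicarbonate carrier Slc4a4 (0.946-fold) were within 1.5-fold.

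Of 22 genes of glutamate, ion and water homeostasis 19 were measured, and 3 were higher and 9 lower, with a median log2 ratio of -0.38. Without the 5 of these that the gate used, 14 were measured, 2 were higher and 8 lower, and the median was -0.61. Of 13 genes of protoplasmic astrocytes 11 were measured, and 1 was higher and 5 lower (median -0.57). Without the 4 of these that the gate used, 7 were measured, and 1 was higher and 4 lower (median -0.74). Over all measured genes the median was 0.19, with 29.8% higher and 17.4% lower. Identity genes outside the gate were split: all 26 were measured, and 6 were higher and 7 lower, with a median of -0.14.

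Gate genes were described with the gate's limit in mind. Slc7a10, a transporter of serine and glycine (chromosome 7, 35186385 to 35201114, plus strand), had 30 UMIs in the library labelled CD8 KO, 6 at 33 weeks, 24 at 30 weeks and 214 in P301S neg. It was also counted in cells that passed at least 3 of the 6 other gate genes. There it had 28 UMIs in the library labelled CD8 KO, or 133 CPM with the deep cell included. It had 4 (25.6 CPM) at 33 weeks, 21 (137 CPM) at 30 weeks and 209 (1788 CPM) in P301S neg. The gap was thus as large in cells that the gene itself did not take in. At 30 weeks P301S hom was 11-fold (7.20 to 17.6) lower. Aqp4, the water channel, was at 2405 CPM in the library labelled CD8 KO without the deep cell, 5845 CPM at 33 weeks, 4580 CPM at 30 weeks and 1037 CPM in P301S neg, 4.42-fold (3.69 to 5.32) higher in P301S hom at 30 weeks. In cells gated on the other 6 genes it was at 4772 CPM in P301S hom and 1117 CPM in P301S neg at 30 weeks. Slc1a2, the main glutamate transporter, and Gja1, connexin 43, were at 0.817- and 0.810-fold.

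**Figure D3:**
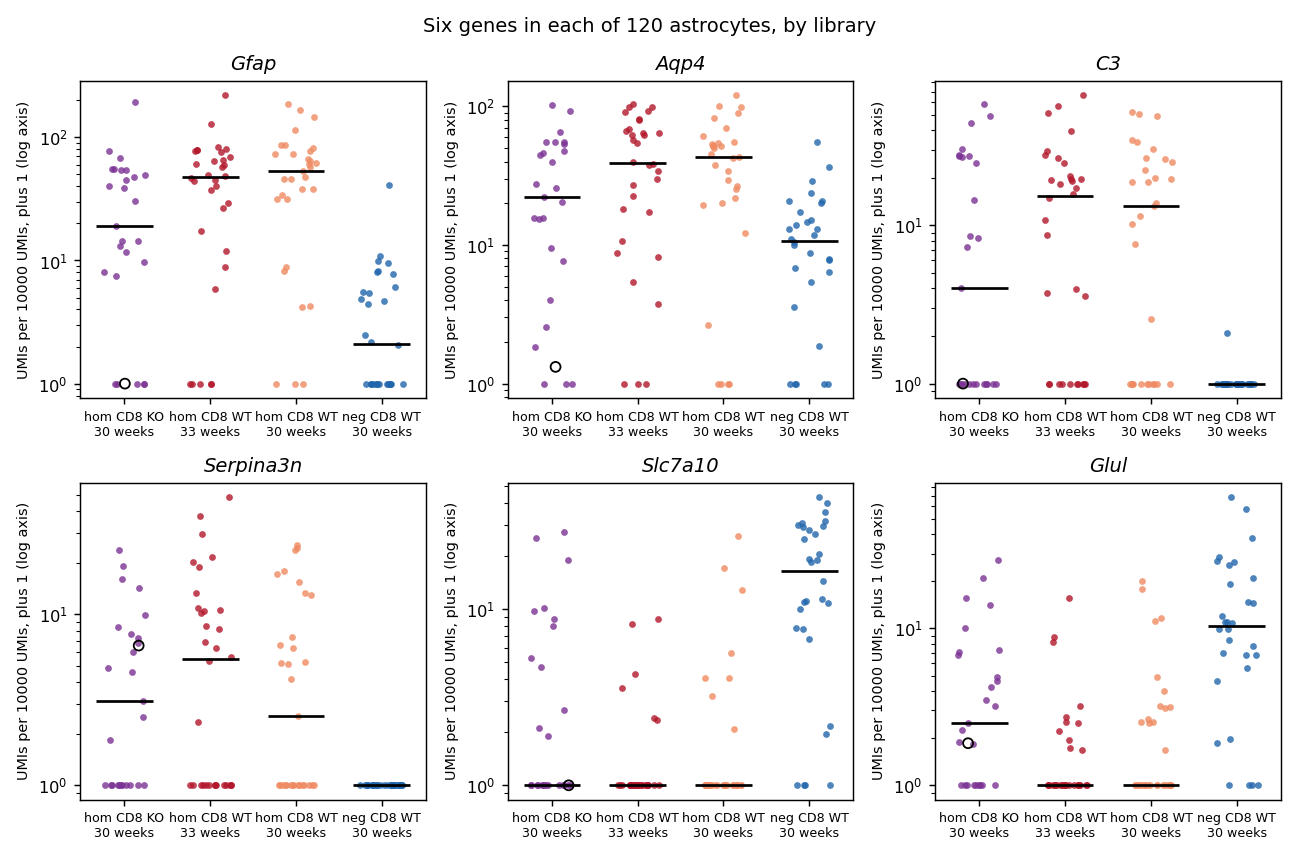
UMIs per 10000 plus 1, on a log axis, of Gfap, Aqp4, C3, Serpina3n, Slc7a10 and Glul in each astrocyte, by library, with a bar at the median; the cell of 93571 UMIs is ringed. At 30 weeks 28 of 31 P301S hom CD8 WT cells and 16 of 30 P301S neg cells had Gfap, whereas Slc7a10 was found in 8 of the P301S hom and 26 of the P301S neg cells.

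Genes of cholesterol synthesis were lower in P301S hom. Of 17, 10 were measured, and 0 were higher and 8 lower, 6 of them with an interval beyond 1, and the median log2 ratio was -1.53. Insig1, an endoplasmic reticulum protein that holds back the pathway's transcription factor and is itself its target, had 14 UMIs in the library labelled CD8 KO without the deep cell, 0 at 33 weeks, 2 at 30 weeks and 30 in P301S neg, a ratio of 18.5-fold (4.70 to 160) lower at 30 weeks. Msmo1, a methylsterol oxidase, was at 283 CPM in the library labelled CD8 KO without the deep cell, 99.8 CPM at 33 weeks, 148 CPM at 30 weeks and 533 CPM in P301S neg, 3.60-fold (2.26 to 5.93) lower at 30 weeks. Dhcr7, a late reductase of the pathway, was 4.69-fold (1.69 to 16.1) lower at 30 weeks. Hmgcs1 and Idi1 were 2.06-fold (0.843 to 5.33) and 2.29-fold (0.850 to 6.79) lower, with intervals that include 1. Fdft1 and Srebf2, the pathway's transcription factor, were both at 0.926-fold.

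Sterol response letters were looked for in the promoters of these genes, and that of Hmgcs1, the synthase before the reductase, is shown as the 1 with a match. The table held 7 promoters of 5 of the genes called lower. The letters TCACNCCAC, searched on both strands, occur in 1.24% of all promoters and in at least 1 promoter of 1.44% of all genes there. The sequence is RefSeq's GRCm38.p6 promoter on the plus strand at chr13:119690101-119690400, with the match in capitals. The match begins 137 bases before the transcription start.
Hmgcs1 promoter: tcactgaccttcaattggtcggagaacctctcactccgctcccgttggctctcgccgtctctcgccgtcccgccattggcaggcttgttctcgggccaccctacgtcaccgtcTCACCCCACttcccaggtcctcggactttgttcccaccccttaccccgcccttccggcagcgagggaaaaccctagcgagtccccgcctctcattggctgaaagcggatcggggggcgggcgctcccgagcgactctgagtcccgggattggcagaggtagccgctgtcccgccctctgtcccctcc
No match says only that these letters are not in that window.

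A further set of genes was named by size: the 10 highest and the 10 lowest ratios among genes with at least 30 UMIs, found in at least 10% of the astrocytes of the higher library and with an interval beyond 1. The highest were C3, Serpina3n, Timp1, Hspb1, A2m and 5 genes with 0 UMIs in P301S neg. A2m, a broad protease inhibitor, was at 850 CPM in the library labelled CD8 KO without the deep cell, 2441 CPM at 33 weeks, 1953 CPM at 30 weeks and 43.8 CPM in P301S neg, 44.6-fold (20.3 to 122) at 30 weeks. Ccn5 (a secreted matricellular protein), Flnc (filamin C), Bace2 (a protease related to beta-secretase), Cntf (ciliary neurotrophic factor) and Prune2 were at least 19.7-, 16.7-, 14-, 12.2- and 11.3-fold higher on the same terms, with exact intervals from 15.6-, 13.2-, 11.02-, 9.48- and 8.83-fold.

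Among the 10 lowest, 7 rested on 1 cell of P301S neg: the neutrophil genes S100a8, S100a9, Camp and Ltf, and Ly6a, Mkrn1 and Sod3, with 73.3 to 97.2% of their P301S neg UMIs in a single cell. The other 3 were Slc7a10, Insig1 and Hsd11b1, the enzyme that regenerates active glucocorticoid, with 4 UMIs in P301S hom and 39 in P301S neg, 12-fold (4.34 to 46.4) lower. At 33 weeks Hsd11b1 stood at 5.87 CPM and in the library labelled CD8 KO at 0 UMIs. Without cells over 1% of UMIs in haemoglobin or S100a8 and S100a9, 648 genes were higher (25.5%) and 507 lower (19.9%) of 2545. With female cells alone, 18 in P301S hom and 14 in P301S neg, 548 were higher (34.3%) and 318 lower (19.9%) of 1597. Of the disease-associated list 16 of 18 were higher in the first of these and 14 of 18 in the second, with 0 lower in both.

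**Figure D4:**
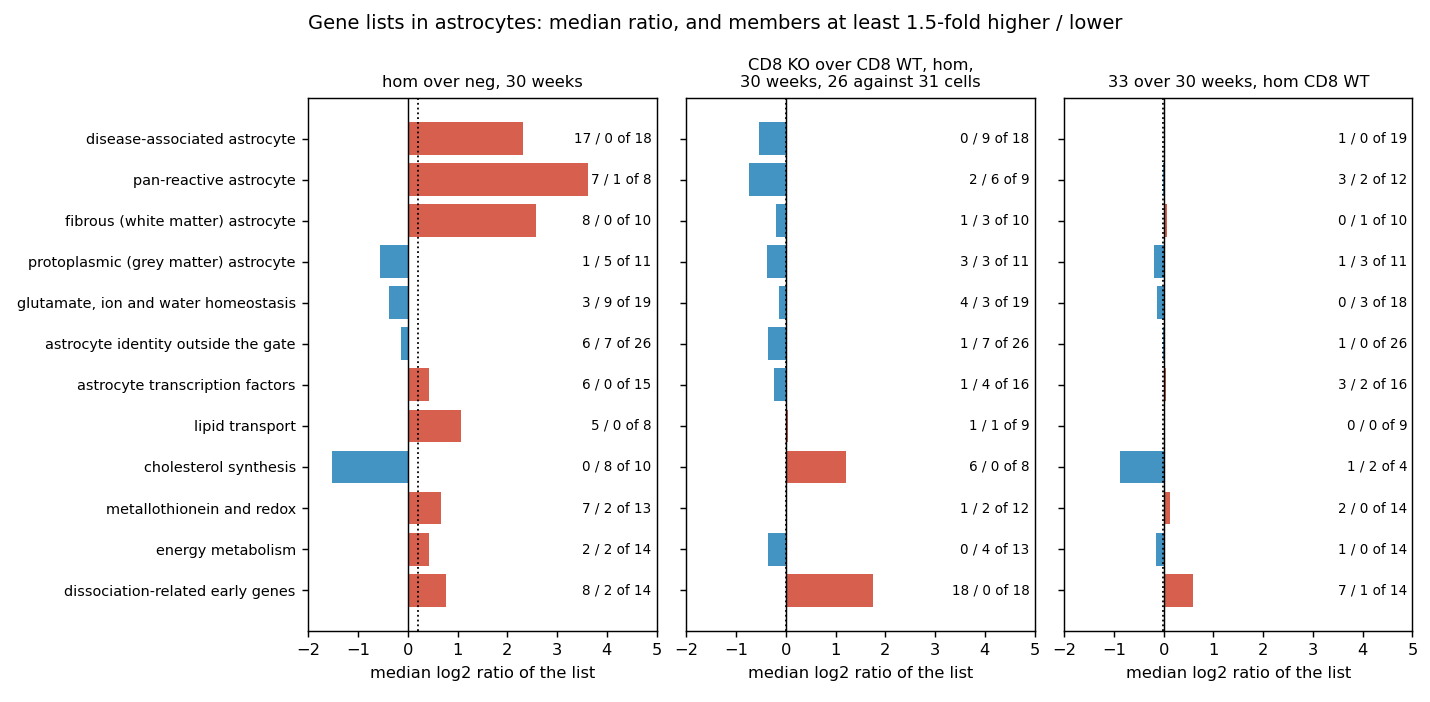
Median log2 ratio of 12 gene lists in 3 panels, P301S hom over P301S neg, the library labelled CD8 KO relative to CD8 WT (26 against 31 cells, without the cell of 93571 UMIs) and 33 over 30 weeks; the dotted line is the median of all measured genes, and the numbers count higher and lower among measured members. Pan-reactive genes had a median of 3.61 and cholesterol synthesis of -1.53 in the first panel. In the third these medians were -0.02 and -0.89, and that of the dissociation-related early genes was 0.59.

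In P301S hom cords at 30 weeks, astrocytes of the library labelled CD8 KO had lower levels of several reactive genes and higher levels of early response genes, with some immune genes higher, than those of CD8 WT. With the deep cell, 1206 of 3788 measured genes were higher (31.8%) and 884 lower (23.3%), and the genes with the highest ratios were mostly its own: Prph, Calca, Snhg11, Dgkh, Nefl, Fgf13, Tac1 and Tubb3, with 83.8 to 98.5% of their UMIs in that cell. Without it 548 of 2792 were higher (19.6%) and 516 lower (18.5%), with a median log2 ratio of 0.01, and the values that follow are without it. All of the library's sexed astrocytes were male and all of CD8 WT's female.

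Of the disease-associated list 18 genes were measured, and 0 were higher and 9 lower, 8 of them not gate genes, with a median of -0.54. Gfap was at 2733 CPM in the library labelled CD8 KO and 4894 CPM in CD8 WT, 0.558-fold (0.493 to 0.632), and Serpina3n at 0.656-fold, C4b at 0.635-fold, Ctsl at 0.546-fold and Ctsd at 0.578-fold. Of the other reactive genes C3 was at 0.543-fold (0.444 to 0.662), Timp1 at 0.425-fold (0.283 to 0.626) and Cd44, the hyaluronan receptor, at 0.372-fold (0.244 to 0.553). Vim (1.42-fold), Clu (0.772-fold), Apoe (0.839-fold) and Cd9 (1.02-fold) were within 1.5-fold. These levels were all above P301S neg: Gfap at 2733 against 263 CPM, C3 at 1061 against 7.30 CPM and Hspb1 at 1984 against 43.8 CPM.

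How many of the list were lower depended on how cells were weighed. With at least 4 gate genes, where 407 of all genes were higher (19.6%) and 378 lower (18.2%), 6 of the list were lower and 0 higher (median -0.38). With each cell weighing equally, over all 27 cells, 4 were lower and 0 higher (median -0.41), beside 29.3% higher and 20.7% lower over all genes. Male cells compared with those of the 33-week library, 14 against 11, gave 15 lower and 0 higher (median -1.51), beside 40.4% higher and 23.8% lower over all genes, with the deep cell, itself male, among the 14 and with age differing. Of the gate genes Aqp4 was at 0.525-fold (0.460 to 0.598). Identity genes outside the gate gave 1 higher and 7 lower of 26, with a median of -0.36, and Sox9 was at 0.50-fold.

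Some support genes were higher. Glul was at 327 CPM in the library labelled CD8 KO and 160 CPM in CD8 WT, 2.05-fold (1.24 to 3.43), and Slc6a9 at 182 and 88.8 CPM, 2.05-fold (1.04 to 4.18). Neither reached the level of P301S neg. The homeostasis list had 4 higher and 3 lower of 19 (median -0.14), and without its gate genes 3 higher and 1 lower of 14, near the 19.6% higher and 18.5% lower over all genes. Fabp7, a fatty acid carrier of immature astrocytes, was 2.34-fold (1.77 to 3.13) higher, with 45.6% of its UMIs from 1 cell. Cholesterol synthesis had 6 higher and 0 lower of 8 (median 1.21). With at least 4 gate genes 2 of its members were measured, with 0 higher and 0 lower, and 72.5% of the UMIs of Fdps and 64.3% of those of Hmgcs1 came from 1 cell.

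Some immune genes were higher in the library labelled CD8 KO. The A1 list gave 3 higher and 0 lower of 5 measured (median 2.22): Srgn, a granule proteoglycan, was 8.35-fold, Psmb8, a subunit of the immunoproteasome, 6.14-fold and Fbln5, a matrix fibulin, 4.67-fold higher, with 64.7 to 84.2% of their UMIs in that library from 1 cell each. With each cell weighing equally, over all 27 cells, the A1 median was -0.17. Interferon response genes gave 4 higher and 0 lower of 5 (median 1.13). Ifi27 was at 298 CPM in the library labelled CD8 KO and 136 CPM in CD8 WT, 2.19-fold (1.28 to 3.82), and was spread over cells, whereas 1 cell held all UMIs of Ifit1 and most of those of Isg15 in the library labelled CD8 KO. The pan-reactive list gave 2 higher and 6 lower of 9 (median -0.73) and the A2 list 0 and 2 of 4 (median -0.96).

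Early response genes, which dissociation is known to induce, were higher in all 18 members (median 1.75). Fos was at 3089 CPM in the library labelled CD8 KO and 1308 CPM in CD8 WT, 2.36-fold (2.0 to 2.79), Jun 2.24-fold, Junb 3.20-fold and Egr1 3.26-fold higher. Klf2 was at 872 and 47.3 CPM, 18.4-fold (9.05 to 43.6) higher. Between 33.9 and 80.8% of the UMIs of each member came from the 1 cell with most of them, and 7 of 8 measured members were higher with at least 4 gate genes. Endothelial-gated cells had 5841 CPM of Fos in the library labelled CD8 KO and 5225 CPM in CD8 WT, and 5290 and 5000 CPM of Klf2. The part of the dissociation in the astrocyte values was not tested.

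Of the genes named by size without the deep cell, all 10 of the highest drew most of their UMIs from 1 cell, 69.4 to 99.2%. Among them were Cd74, Lyz2, S100a8, Cd52, Myl9, Thbs1, Zfp36, Klf4 and Ppp1r15a, several of them genes of immune or mural cells. Summed macrophage and mural markers were higher in the library labelled CD8 KO as given above, and their part in these ratios was not tested. The lowest were better spread: Slc16a1, the lactate and ketone carrier MCT1, was at 102 CPM in the library labelled CD8 KO and 361 CPM in CD8 WT, 3.55-fold (1.96 to 6.87) lower. Slc22a4, a carrier of ergothioneine, was 3.49-fold (1.93 to 6.76) lower, Ccn5 3.30-fold, Flnc 3.16-fold and Ephx1 (an epoxide hydrolase) 3.41-fold lower. The other 5 were Dnajc7, Dcxr, Bag3, Gch1 and Ndufv1. Dnajc7 had the lowest ratio, and 54.8% of its CD8 WT UMIs came from 1 cell. Slc16a1, Ccn5 and Flnc were also higher in P301S hom than in P301S neg, and the 2 comparisons share the CD8 WT library.

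The 33-week and 30-week astrocytes of P301S hom CD8 WT differed in fewer genes, though by a smaller margin where each cell weighed equally. Of 3030 measured, 346 (11.4%) were higher and 429 (14.2%) lower at 33 weeks, and with an interval beyond 1 these were 96 (3.17%) and 94 (3.1%). Of the disease-associated list 19 genes were measured, and 1 was higher and 0 lower, with a median log2 ratio of 0.01. Gfap was at 1.09-fold (0.986 to 1.19), Clu at 1.0-fold, Apoe at 1.01-fold and Aqp4 at 1.28-fold (1.16 to 1.40), while C3 was at 0.814-fold (0.691 to 0.959). Identity genes outside the gate gave 1 higher, Sox9, and 0 lower of 26. There were 5 female and 11 male sexed astrocytes at 33 weeks, and 18 female and 0 male at 30 weeks.

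Some reactive genes were lower at 33 weeks. Lgals3 was at 493 CPM at 33 weeks and 1083 CPM at 30 weeks, 0.455-fold (0.347 to 0.592), Cd44 at 334 and 645 CPM, 0.519-fold, and H2-D1 at 0.512-fold. Of 12 pan-reactive genes measured 3 were higher and 2 lower (median -0.02). Lcn2, lipocalin-2, had 26 UMIs in 6 cells at 33 weeks and 9 UMIs in 4 cells at 30 weeks, 2.86-fold (1.30 to 6.95). Chil1, a chitinase-like protein of reactive astrocytes, had 23 UMIs at 33 weeks and 8 at 30 weeks, 2.85-fold (1.23 to 7.37), but with female cells alone its log2 ratio was -1.70.

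A few transcriptional regulators were higher at 33 weeks. Sbno2, a co-regulator downstream of STAT3, was at 176 CPM at 33 weeks and 35.5 CPM at 30 weeks, 4.96-fold (2.03 to 14.6). Pax6 was at 158 and 41.4 CPM, 3.82-fold (1.62 to 10.4), Id4 at 1332 and 769 CPM, 1.73-fold (1.39 to 2.17), and Hey1, a target of Notch, had 19 and 3 UMIs, 6.28-fold (1.85 to 33.1). Sox9 was at 546 and 349 CPM, 1.56-fold. Over the 16 factors measured 3 were higher and 2 lower, beside 11.4% higher and 14.2% lower over all genes. Of the other genes named by size, Hpgd, Rab18, Acat1 and Pgpep1 were 2.70- to 3.07-fold higher, and S100a8 and S100a9 drew 97.8 and 96.9% of their UMIs from 1 cell.

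Of the support genes, Slc7a10, a gate gene, had 6 UMIs at 33 weeks and 24 at 30 weeks, 4.03-fold (1.61 to 12.1) lower, and Slc6a11 was at 129 and 308 CPM, 2.38-fold lower. The homeostasis list gave 0 higher and 3 lower of 18 (median -0.13), and without its gate genes 0 and 2 of 13, near the 14.2% lower over all genes. Among the genes named as lowest were Dnajc7 (a co-chaperone, 4.71-fold, 2.26 to 11), Cd24a, Slc7a10, Emp1, Pak1ip1, Slc44a2, Tnfrsf12a, Limk2 and Ccn5, and 80.8% of the 30-week UMIs of Cd24a and 54.8% of those of Dnajc7 came from 1 cell. With each cell weighing equally 690 genes were higher (22.8%) and 725 lower (23.9%).

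Astrocytes varied within the P301S hom libraries. After thinning to 1000 UMIs, 62 P301S hom cells had a Gfap UMI and 16, without the deep cell, had none. Cells with Gfap had a mean of 8.39 UMIs per 1000 of Clu, 3.45 of Vim, 3.29 of Hspb1 and 1.85 of C3, while cells without it had means of 1.125 of Clu, 0.875 of Vim, 0.188 of Hspb1 and 0 of C3. Each of these means was higher in the cells with Gfap, in the pool and in each of the 3 libraries. Aldoc averaged 3.66 in cells with Gfap and 2.75 in cells without in the pool, but not every library had that direction. These means were 4.21 and 1.33 in the library labelled CD8 KO, 3.83 and 3.5 at 33 weeks, and 2.95 and 3.75 at 30 weeks. Glul had no common direction: its mean was 0.368 in cells with Gfap and 0.167 in cells without in the library labelled CD8 KO, 0 and 0.333 at 33 weeks, and 0.10 and 0.75 at 30 weeks. For Slc7a10, a gate gene, these means were 0.474 and 0.5, 0 and 0.333, and 0.25 and 1, and at 2000 UMIs the cells with Gfap had the higher mean in the library labelled CD8 KO and at 33 weeks. Weakly sampled cells and cells at the edge of the gate fall among those without Gfap, and their part in these means was not tested.

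In P301S neg 11 cells had Gfap after thinning and 19 had none. Slc7a10 averaged 1.18 UMIs per 1000 in cells with Gfap and 1.95 in cells without, and Glul 3.18 and 0.684. C3 had a mean of 0 in both. After thinning to 2000 UMIs the direction of Slc7a10 turned, with 3.89 UMIs in cells with Gfap and 3 in cells without. Glul then averaged 3.11 and 2.46. P301S neg cells with Gfap were without the C3 of P301S hom cells with Gfap, and their means of Slc7a10 and Glul were higher than in each P301S hom library. Gfap and Slc7a10 were found together in 6 thinned cells of the library labelled CD8 KO, 0 at 33 weeks, 3 at 30 weeks and 7 in P301S neg.

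**Figure D5:**
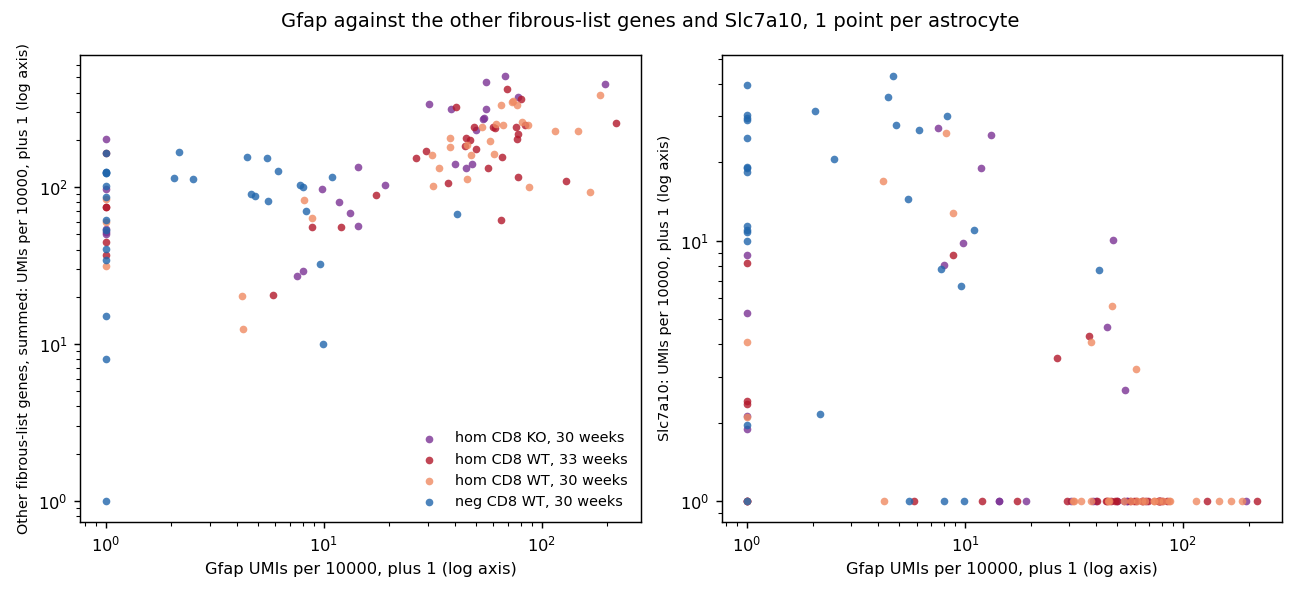
UMIs per 10000 plus 1, on log axes, in each astrocyte by library, without thinning and without the cell of 93571 UMIs. Gfap is set against the summed other genes of the fibrous list and against Slc7a10. P301S hom cells reach high Gfap with few Slc7a10 UMIs, and some of the P301S neg cells have no Gfap UMI.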

How the data were processed

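Spinal cord cells of 4 mouse libraries, 1 for each group, underwent 3′ single-cell RNA sequencing. The authors deposited UMI counts, not normalized, which they made with Cell Ranger 6.0.1 on mm10, per the submitters' processing notes, for the barcodes that program called as cells; the annotation used upstream is not given in the sources used here. The tables hold 32285 genes, and positions of genes come from GENCODE M21 on mm10. Kept cells and gates are given above. Possible doublets were called by scrublet (scanpy 1.11.5, 6% expected) and left in, apart from what the gate removed: 0.911 to 1.60% of kept cells and 1 astrocyte, in the library labelled CD8 KO, were called.

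Counts were summed over the astrocytes of a library and scaled to CPM by the total of the sum (scipy 1.17.1, numpy 2.4.6 and pandas 2.3.3 under Python 3.11.15). Level intervals are exact Poisson intervals, ratio intervals exact conditional binomial ones and shares have Clopper-Pearson ones, all at 95%. A library at 0 was set to 3 counts for a bound. PCR duplicates are removed by UMIs, but the cells of 1 library share their mice, so intervals cover counting error only. Genes were named from the gate, from the 20 highest ratios to other cells, from the lists, and as the 10 highest and lowest ratios of a comparison (10 CPM added), without mitochondrial, ribosomal, haemoglobin, immunoglobulin, sex-linked and predicted genes and without genes whose level in another gated class of at least 50 cells was over 10 times as high. Up to 4 members of each list were named by the size of their ratio, and further members after their values were seen. Genes singled out for their UMIs in 1 cell, and Hey1, Id4, Lgals3 and Cd44 at 33 weeks, were named after their values were seen. A few genes are not reported here. The members, lists and tests were chosen with earlier results of these data known. Alternatives changed the scaling, count minimum, gate, weight of cells, sex and doublets; leaving out the deep cell, cells with over 1% haemoglobin or neutrophil genes, and gating on 6 genes were added after seeing the data.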

Additional observations from a re-analysis of the deposited data

How the results depend on the processing

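With 1 library in each group, no replicate could be left out and no test of a condition was possible. No paired analysis was possible because each group was 1 library. About 30 cells in each library limit every value, and genes under 20 UMIs in a comparison were not measured. For the counts of genes and the shares of astrocytes, 74 of the alternative values stayed within 1.5 times or the counting interval, and 23 moved. For P301S hom over P301S neg, a minimum of 50 UMIs gave 240 higher and 123 lower and a minimum of 1 UMI gave 5227 and 3802. For the library labelled CD8 KO relative to CD8 WT these were 466 and 293, and 5004 and 4294. At least 4 gate genes gave 407 and 378 there, and leaving out the deep cell 548 and 516. For 33 over 30 weeks they were 69 and 62, and 3594 and 4197, and with cells weighing equally 690 and 725. The minimum changes how many genes are counted. With at most 10% mitochondrial UMIs the share of astrocytes was 0.342% in the library labelled CD8 KO and 0.201% in P301S neg, and outside the macrophage gate it was 1.01% in the library labelled CD8 KO, 1.0% at 33 weeks and 1.12% at 30 weeks.

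Among the genes and list medians, 2822 alternative values stayed on their side and 42 turned their direction, and the cause was not tested. The values that follow are log2 ratios. P301S hom over P301S neg turned with at least 4 gate genes for the early gene median (-0.54), Cd55 (0.53) and Fn1 (1.53), and with female cells for the patterning median (-0.36) and Ltf (0.44). For the library labelled CD8 KO, with its deep cell unless said, cells weighing equally turned the medians of homeostasis (0.23), protoplasmic (0.23), A1 (-0.17), synapse (0.086) and lipid transport (0.47) genes, and Slc1a2 (0.069), Slc1a3 (0.082), Gja1 (0.053), Ntsr2 (0.23), Cldn10 (0.034), Ckb (0.082), Aldoc (0.13), Dbp (0.48) and Cd55 (-2.52). At least 4 gate genes turned the lipid transport median (0.070), Ckb (0.11), Aldoc (0.19), Hsp90aa1 (-0.18), Ifit1 (-0.15), Lifr (-0.73) and Stmn1 (-0.87). Male cells turned the clock (0.17) and cytokine (0.040) medians, Cd44 (0.026) and Cebpd (-0.13). Leaving out genes of other classes turned the A1 median (-0.054), leaving out doublets Acta2 (-0.41), and leaving out the deep cell the lipid transport median (0.052) and Cd55 (-0.70). For 33 over 30 weeks, S100a8 turned with at least 4 gate genes (-1.37), female cells (-0.29) and without cells high in blood genes (-0.30), S100a9 likewise (-0.79, -0.82 and -0.75), and female cells turned Chil1 (-1.70) and the cholesterol median (0.15).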

Other observations

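Counts for other groups of genes in P301S hom over P301S neg astrocytes at 30 weeks follow, and several of these lists were thinly measured. Over all measured genes 29.8% were higher and 17.4% lower, and the counts of that comparison, such as 3 of 9 heat shock genes, stand beside these shares. Of 17 genes of energy metabolism 14 were measured, and 2 were higher and 2 lower (median log2 ratio 0.42): Slc16a1 (3.53-fold) and the glucose transporter Slc2a1 (1.55-fold) were higher, and Aldoc (1.55-fold) and the glycogen-targeting subunit Ppp1r3c were lower. Among 17 secreted regulators of synapses and phagocytic receptors 9 were measured. Thbs2, a thrombospondin, and Gas6, a ligand of the TAM receptors, were 4.73-fold (1.97 to 13.7) and 5.37-fold (2.54 to 13.1) higher, while the TAM receptor Mertk was 4.69-fold and the glypican Gpc5 5.43-fold lower. Of 14 complement genes 5 were measured, and 4 were higher, C3, C4b, Serping1 and Clu, and 1, Cd55, was lower (median 2.42). With at least 4 gate genes Cd55 turned to a log2 ratio of 0.53. Of 19 genes of matrix and adhesion 14 were measured, and 4 were higher and 2 lower.

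The stress lists were mostly within 1.5-fold in that comparison. Heat shock genes gave 3 higher and 0 lower of 9 measured, endoplasmic reticulum stress 0 and 2 of 8, glucocorticoid response 1 and 2 of 8 and clock output 0 and 1 of 6. Early response genes gave 8 higher and 2 lower of 14 (median 0.76, but -0.54 with at least 4 gate genes). Interferon genes gave 1 higher and 1 lower of 3 measured of 22, and class I antigen genes 2 higher and 0 lower of 4 measured of 15, among them B2m at 1.73-fold. Of 14 proliferation genes 1 was measured, and of 27 patterning genes 2 were, with 1 higher. At 33 against 30 weeks glucocorticoid response genes gave 4 higher and 0 lower of 7 (median 0.89). Over all genes measured in that comparison 11.4% were higher and 14.2% lower.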
